A study of Mus musculus with 12 samples.

Results

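DNA methylation was examined at 7 genes that encode endoderm transcription factors of the FOXA, HNF and GATA families: Foxa1, Foxa2, Foxa3, Hnf4a, Onecut1, Gata4 and Gata6. They were chosen by name, as 7 of the 21757 protein-coding genes of the GENCODE annotation, and each was taken as its gene body plus 20 kb on either side, a window of 44.2 to 112.8 kb. The windows held 60 of 87689 merged hypomethylated regions (HMRs), stretches of CpGs with little methylation that the authors called in each pool of cells and that were joined here where those of different pools overlapped. Hnf4a had 12 of them, Gata4 14, Onecut1 10, Foxa3 8, Foxa2 and Gata6 6 each, and Foxa1 4. Because a merged HMR has a low level in at least 1 pool by construction, and more HMRs were called at postnatal day 2 (P2) than at day 60 (P60), an HMR called at P2 alone was picked for its low level there; the windows around gene starts and the whole windows were not picked by level.

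The DNA came from sorted β cells of MNYI mice, which carry Myt1cCre, Ngn3nCre, Rosa26eYFP and InsApple in every group. In these mice 2 inactive parts of Cre are driven by Myt1 and by Neurog3 (Ngn3), so eYFP is switched on for good in the progeny of islet progenitors that expressed both genes (M+N+), and eYFP- β cells, which the labels call M-N+, are those in which it was not switched on. Apple marks insulin-producing cells, and the sort was on both reporters. The 4 groups were eYFP- and eYFP+ β cells at P2, with 2 libraries each, and at P60, with 4 libraries each, and every library combined several sorts of several mice of 1 labelled sex. The labels name the reporter eGFP and the cells all islet cells, although their protocol describes the sort on eYFP and Apple.

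Levels were given as the percent of methylated reads among all reads on the CpGs of a region, and they existed for 1 pool per subtype and stage, so a level has no replicate error, and its 95% Wilson interval covers counting error only. The pools averaged 24.0 to 24.2 reads per CpG at P2 and 43.4 to 43.7 at P60. A Fisher's exact test on the reads of 2 pools compared those pools and not the mice behind them. Single libraries were represented by the positions of their HMRs, and only these gave replicated values. Going by the names of the deposited files, all P2 libraries belonged to 1 submission and the P60 libraries to 2 others, so stage and submission cannot be told apart, and neither can a change within cells and a change in the share of cells of 1 kind. The cells were checked by the 2 kb around the outermost annotated start of each marker gene, and other starts of these genes were not measured. Of 7 β cell markers, Ins1 had 32.5% and 43.3% methylation in the eYFP- and eYFP+ pools at P2 and 7.93% and 10.1% at P60 and was the single one called, lower in both subtypes. Among the others, Mafa had 4.598% to 5.79% over the 4 pools, Iapp and Slc2a2 14.3% to 23.8% and Ucn3 34.1% to 39.5%. Ins2 and G6pc2 had 75.1% to 81.7%, so the outermost annotated starts of 2 β cell markers were highly methylated. This does not give the level at any other start of these 2 genes. The starts of the 5 acinar markers had 50.5% to 86.8%, with Cpa1 called higher at P60 in both subtypes and Cela1 in eYFP+ cells. Those of 4 alpha cell markers ran from 1.18% to 68.5%, of 3 delta cell markers from 1.01% to 75.8%, of 3 endothelial markers from 10.9% to 76.1%, of 3 immune markers from 56.1% to 79.9% and of 3 mesenchymal markers from 17.8% to 71.5%, and none of these 16 was called between stages. On the X chromosome, 253 HMRs found in every male and no female P60 library were present at 91.7% in the P2 eYFP- library labelled female and at 13.4% in the one labelled male, against 13% and 83.8% in the eYFP+ libraries labelled female and male. The 2 eYFP- libraries thus went against their labelled sex, which leaves the groups as they are.

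FOXA proteins are pioneer factors that bind closed chromatin and open enhancers in the endoderm, where Foxa1 and Foxa2 act together in pancreas and liver. HNF4A, a nuclear receptor, and ONECUT1, also called HNF6, are regulators of liver and pancreas genes, and Hnf4a is transcribed from a distal promoter in islets and from a proximal promoter in liver. GATA4 and GATA6 are zinc finger factors needed for pancreas formation. Methylation of CpGs at promoters and enhancers is commonly low where such elements are in use, and broad CpG-rich low-methylation domains are typical of genes for developmental factors.

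The sequences below show, for contrast, the stretch before the distal annotated start of Hnf4a, which stayed near 0%, and the middles of the HMRs with the largest stage difference at Hnf4a, Onecut1, Foxa2 and Gata4, written 5′ to 3′ on the gene's strand from the mm39 genome, with each CpG in capitals.
Hnf4a distal promoter, chr2:163348478-163348727, plus strand: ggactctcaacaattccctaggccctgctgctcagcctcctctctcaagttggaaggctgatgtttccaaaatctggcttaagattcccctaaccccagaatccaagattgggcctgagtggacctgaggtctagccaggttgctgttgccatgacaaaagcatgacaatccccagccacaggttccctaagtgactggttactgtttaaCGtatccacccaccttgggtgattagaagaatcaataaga
Hnf4a intron 3, chr2:163397329-163397628, plus strand: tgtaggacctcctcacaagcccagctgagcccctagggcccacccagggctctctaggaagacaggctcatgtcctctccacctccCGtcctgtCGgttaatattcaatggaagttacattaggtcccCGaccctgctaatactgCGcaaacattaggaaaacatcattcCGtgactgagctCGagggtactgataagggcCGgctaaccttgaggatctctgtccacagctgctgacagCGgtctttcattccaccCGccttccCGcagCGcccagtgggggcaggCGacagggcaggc
Onecut1, downstream, chr9:74820172-74820471, plus strand: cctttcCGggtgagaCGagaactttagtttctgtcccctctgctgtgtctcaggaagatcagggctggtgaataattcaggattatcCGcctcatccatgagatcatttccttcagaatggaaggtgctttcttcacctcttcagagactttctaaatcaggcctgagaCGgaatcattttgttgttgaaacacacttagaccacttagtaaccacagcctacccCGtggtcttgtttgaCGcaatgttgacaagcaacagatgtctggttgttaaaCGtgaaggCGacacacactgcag
Foxa2, upstream, chr2:147895405-147895704, minus strand: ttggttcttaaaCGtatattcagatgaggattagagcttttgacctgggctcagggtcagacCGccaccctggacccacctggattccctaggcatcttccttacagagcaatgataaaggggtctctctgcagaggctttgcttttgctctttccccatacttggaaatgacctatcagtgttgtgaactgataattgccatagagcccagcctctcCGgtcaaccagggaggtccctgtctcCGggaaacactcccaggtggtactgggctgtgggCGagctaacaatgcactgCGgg
Gata4 intron 2, chr14:63468604-63468903, minus strand: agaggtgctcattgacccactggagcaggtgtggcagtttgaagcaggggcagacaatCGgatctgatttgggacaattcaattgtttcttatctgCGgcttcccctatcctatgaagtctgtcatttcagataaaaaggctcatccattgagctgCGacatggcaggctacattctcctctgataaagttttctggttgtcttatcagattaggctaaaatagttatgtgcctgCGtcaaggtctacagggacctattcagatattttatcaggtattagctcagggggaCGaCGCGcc
None of the 5 stretches overlaps an annotated exon. The distal promoter stretch of Hnf4a has 1 CpG, at 0% in both P2 pools and the P60 eYFP- pool and at 1.41% of 71 reads in the P60 eYFP+ pool; the 24, 25 and 47 reads behind the values of 0 allow levels of up to 12.5%, 12% and 6.38%. The intron 3 stretch of Hnf4a has 12 CpGs, and its level was 4.45% and 5.70% in the eYFP- and eYFP+ pools at P2 and 49.4% and 44.4% at P60. The 8 CpGs of the Onecut1 stretch went from 14.1% and 11.7% to 38.7% and 38.6%, the 6 of the Foxa2 stretch from 20.7% and 13.7% to 52.0% and 43.7%, and the 7 of the Gata4 stretch from 10% and 13.9% to 28.3% and 25.8%.

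Methylation of HMRs in the windows of these genes was higher at P60 than at P2 in about the share of HMRs that the genome shows. An HMR was called where the adjusted p was under 0.05 over all HMRs of the genome and the levels differed by at least 10 percentage points. In eYFP- cells 16 of the 60 HMRs, or 26.7%, were called higher at P60, against 27.8% of all HMRs tested, and none was called lower, against 3.08%. In eYFP+ cells 15 were called higher, against 26.4%, and 1 lower, against 4.01%. The members' median difference came to 3.96 percentage points for eYFP- cells and 3.22 for eYFP+ cells, against 2.90 and 2.36 over all HMRs. In both subtypes, 12 were called higher (22.7% of all HMRs were), of which 5 lay at Hnf4a, 3 at Foxa2, 2 at Gata6, 1 at Onecut1 and 1 at Gata4, and Foxa1 and Foxa3 had none. Reads on neighbouring CpGs often come from the same molecule, so the counts of each HMR were also scaled down to its mean reads per CpG. With these, 1 HMR was called higher in eYFP- cells, in intron 3 of Hnf4a, and none in eYFP+ cells. The share of all HMRs called with scaled counts is not given here, so the members are not set against the genome in this setting.

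**Figure D1:**
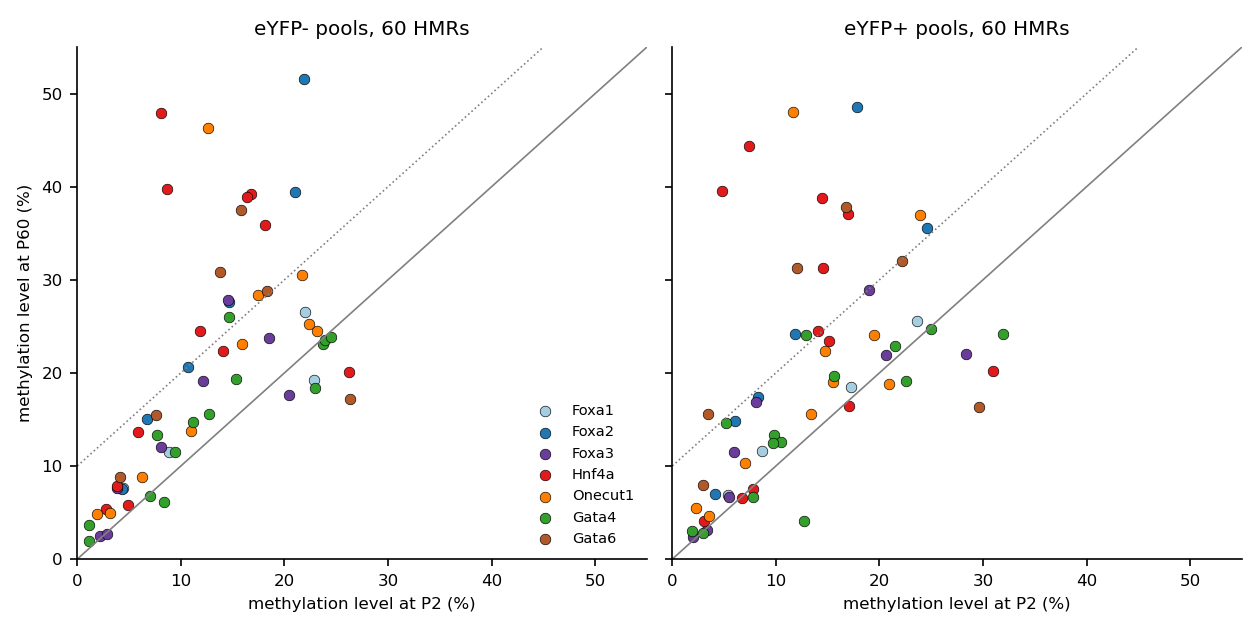
Methylation level at P60 (y axis, percent) against P2 (x axis, percent) for each of the 60 merged HMRs, in eYFP- pools (left) and eYFP+ pools (right), coloured by gene. The solid line marks equal levels and the dotted line a level 10 percentage points higher at P60. The points farthest above the dotted line are 2 HMRs of Hnf4a and 1 each of Onecut1 and Foxa2, which went from between 4.76% and 21.9% to between 39.5% and 51.6%.

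The HMRs were also split by whether they cover a transcript start of any gene. Of the 18 that do, 3 were called higher at P60 in eYFP- and 2 in eYFP+ cells, and of the 42 that do not, 13 in each subtype. Over the genome, 11.4% of 21350 tested HMRs with a start and 33.3% of 64469 without one were called higher at P60 in eYFP- cells, and 10.8% of 21343 and 31.6% of 64449 in eYFP+ cells. The members' shares, 16.7% and 11.1% with a start and 31% in either subtype without one, lay near these.

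Hnf4a lies on the plus strand of chr2:163348728-163414830, and its 4 annotated starts had 2 kinds of level. Within 500 bp of the distal start, methylation was 0.230% and 0.498% in the eYFP- and eYFP+ pools at P2 and 2.51% and 1.204% at P60. Around the canonical start, 40.3 kb farther in, it was 50.1% and 54.4% at P2 and 67.9% and 64.9% at P60. The distal start was thus nearly free of methylation in all 4 pools, and the proximal one was more than 50% methylated in each. The HMR over the distal start, chr2:163348439-163349949, was present in all 12 libraries and had levels of 2.76% (interval 1.83 to 4.15), 3.03% (1.99 to 4.59), 5.40% (4.44 to 6.56) and 4.10% (3.23 to 5.19) in the P2 eYFP-, P2 eYFP+, P60 eYFP- and P60 eYFP+ pools. The short HMR over the canonical start, 230 bp in the noncoding part of exon 1 with 6 CpGs, had 11.9% and 15.1% at P2 and 24.5% and 23.4% at P60; it was called higher in eYFP- cells only (12.69 percentage points, adjusted p = 0.00395, Fisher's exact test), the difference between the subtypes' changes (-4.38 points, adjusted p = 0.768) was not called, and just 1 of the 12 libraries had it.

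Within the gene, the HMR of intron 3 at chr2:163397136-163397821 had the largest stage difference of any HMR in the 7 windows. Its 16 CpGs were methylated at 8.08% (5.78 to 11.2) and 7.39% (5.22 to 10.4) in the eYFP- and eYFP+ pools at P2 and at 47.9% (45 to 50.8) and 44.4% (41.2 to 47.6) at P60. The differences were 39.80 percentage points (adjusted p = 1.14e-49, Fisher's exact test) and 36.98 (adjusted p = 7.8e-44). Their mean was larger than that of 98.2% of 82352 HMRs with at least 5 CpGs and at least 10 reads in every pool. All 15 CpGs with at least 10 reads in every pool were higher at P60 in both subtypes. Each of the 4 P2 libraries had an HMR here, of 512 or 686 bp, and none of the 8 P60 libraries did. A further HMR of Hnf4a with this pattern of libraries lies in intron 7, where the level went from 16.4% and 17.0% to 38.9% and 37.1%.

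The other HMRs of Hnf4a called in both subtypes were 12.7 kb upstream of the distal start (18.2% and 14.6% at P2, 35.9% and 31.3% at P60) and 34.1 kb inside it (16.8% and 14.5%, then 39.2% and 38.8%). The first was found in 4 P2 and 5 P60 libraries, and the second, of 435 bp, in no single library. One more, 16.9 kb inside, had as few as 3.5 reads per CpG and went from 8.70% and 4.76% (interval of the latter 0.846 to 22.7) to 39.8% and 39.5%. The HMR 28.2 kb inside was called in eYFP+ cells alone, from 14.09% to 24.5%, and went from 14.11% to 22.3% in eYFP- cells; the changes of the subtypes were not called different. Past the 3′ end, an HMR 68.6 kb from the distal start was the single one of the 60 called lower, in eYFP+ cells, from 31% to 20.3%; in eYFP- cells it went from 26.2% to 20.1%. Over all 12 HMRs of Hnf4a the level was 10.3% and 11.99% at P2 and 22.3% and 21.2% at P60, while in the rest of the window it was 78.1% and 78.3%, then 82.0% and 81.5%.

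**Figure D2:**
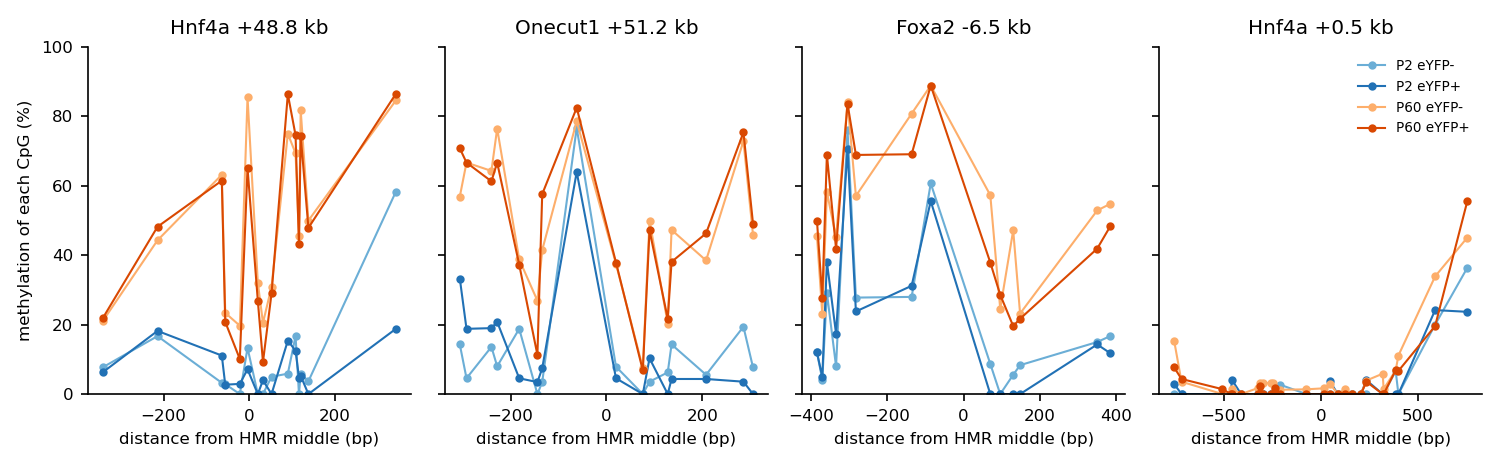
Methylation of single CpGs (y axis, percent) by distance from the middle of the HMR (x axis, bp) for the HMRs with the largest stage difference at Hnf4a, Onecut1 and Foxa2 and, at the right, the HMR over the distal start of Hnf4a. Lines join the CpGs of 1 pool, blue for P2 and orange for P60. In the 3 HMRs at the left the P60 pools lie above the P2 pools at nearly every CpG, and in the HMR at the right most CpGs lie near 0% in all 4 pools.

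Onecut1 lies on the plus strand of chr9:74769118-74800594. Its start lay in an HMR of 3798 bp, chr9:74768258-74772055, that all 12 libraries had, with levels of 3.17%, 3.57%, 4.92% and 4.67% in the P2 eYFP-, P2 eYFP+, P60 eYFP- and P60 eYFP+ pools. The largest stage difference was 51.2 kb downstream of the start, outside the gene, in an HMR of 17 CpGs at chr9:74820016-74820627. Its level was 12.6% (9.84 to 16) and 11.7% (8.81 to 15.3) at P2 and 46.3% (43.1 to 49.6) and 48.0% (44.8 to 51.1) at P60. The differences of 33.75 and 36.31 percentage points (adjusted p = 8.6e-36 and 7.74e-37, Fisher's exact test) were on average larger than those of 97.3% of HMRs. All 16 CpGs with enough reads were higher at P60 in both subtypes, and the HMR was present in 4 of 4 P2 and 0 of 8 P60 libraries. At the other 9 HMRs of Onecut1 the differences ran from -2.12 to 13.09 percentage points; those called were 1 in exon 2 in eYFP- cells (17.5% to 28.3%) and 1 that was 14.6 kb upstream in eYFP+ cells (23.9% to 37.0%).

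Foxa2, on the minus strand of chr2:147884797-147889005, lay whole in an HMR of 9904 bp, chr2:147879143-147889046. The gene body itself had 1.00% and 1.17% methylation at P2 and 0.777% and 0.707% at P60. The level of the HMR was 6.75% (6.25 to 7.27) and 6.10% (5.64 to 6.59) at P2 and 15.01% (14.5 to 15.5) and 14.8% (14.3 to 15.3) at P60, so the difference lay beside the gene and not on it. This HMR was not called, as its differences of 8.27 and 8.72 percentage points were under the minimum of 10. Its length differed between stages in the libraries: 8008 and 8270 bp in eYFP- and 9762 and 9165 bp in eYFP+ cells at P2, and 6837 to 7499 bp in the 8 P60 libraries. The 20 kb past the 3′ end as a whole, a stretch that holds the long noncoding RNA 9030622O22Rik, went from 26.1% and 23.9% to 42.2% and 41.7%.

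Among the smaller HMRs of Foxa2, the one 6.5 kb upstream at chr2:147895171-147895938 had the largest stage difference. Its 14 CpGs went from 21.9% (17.7 to 26.8) and 17.9% (14.3 to 22.1) to 51.6% (48.1 to 55) and 48.5% (45 to 52), by 29.66 and 30.67 percentage points (adjusted p = 9.6e-19 and 5.1e-23, Fisher's exact test). Each of the 14 CpGs was higher at P60 in both subtypes, and the HMR was present in 4 P2 and 0 P60 libraries. Downstream, the HMRs 23.1 kb and 12.2 kb from the start were called higher in both subtypes. The first went from 14.7% and 11.9% to 27.6% and 24.2%, and it covered 792 to 1414 bp in the P2 libraries and 280 bp in each of the 8 P60 libraries. The second had 21.1% and 24.6% at P2 and 39.4% and 35.6% at P60. Of the pools only P2 eYFP- had this second HMR, so it was picked for its low level there, and 1 library of each subtype had it at P2.

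Foxa1 and Foxa3 had no HMR called in both subtypes. At Foxa1, on the minus strand of chr12:57587414-57593702, the HMR over the start spanned 11775 bp, the most of the 60, and had 4.45%, 5.34%, 7.63% and 6.91% in the P2 eYFP-, P2 eYFP+, P60 eYFP- and P60 eYFP+ pools. Its stage difference was 1.61 percentage points smaller in eYFP+ than in eYFP- cells and passed a z test adjusted over all HMRs, but its size was under the minimum for a call. The largest stage difference among the 4 HMRs of Foxa1, 16.3 kb downstream of its outermost start, was 4.56 points in eYFP- and 1.92 in eYFP+ cells (adjusted p = 0.391 and 0.756, Fisher's exact test). Outside its HMRs, the window of Foxa1 had 64.7% and 66.2% at P2 and 61.2% and 60.6% at P60.

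At Foxa3, on the minus strand of chr7:18747209-18757471, the HMR over the start also covers the start of the neighbouring Sympk, and it had 2.89%, 3.34%, 2.72% and 3.14% in the same order of pools. The HMR in intron 1, 2.5 kb inside the gene, went from 14.6% and 19.0% to 27.9% and 28.9%. It was called higher in eYFP- cells (13.27 percentage points) and missed the minimum in eYFP+ cells (9.87 points, adjusted p = 0.000276, Fisher's exact test). The changes of the subtypes were not called different (-3.40 points). All 4 P2 libraries had this HMR, with 773 to 1073 bp, and 2 of the 8 P60 libraries had a part of it.

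**Figure D3:**
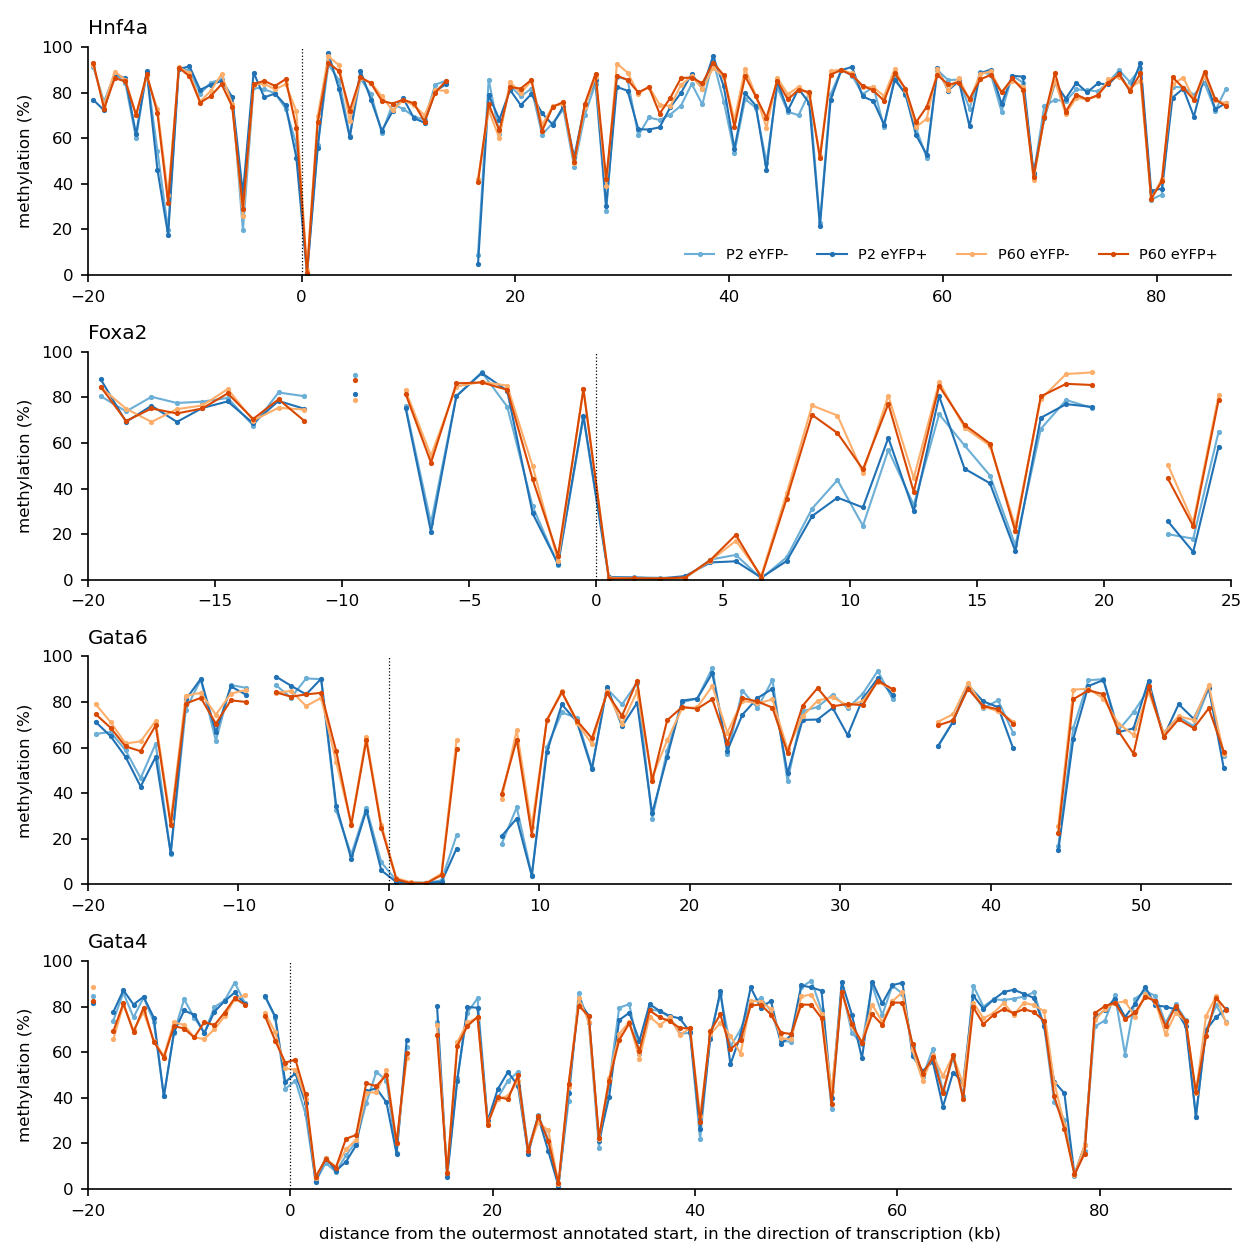
Methylation level in bins of 1 kb (y axis, percent) by distance from the outermost annotated start in the direction of transcription (x axis, kb), for Hnf4a, Foxa2, Gata6 and Gata4. Blue lines are P2 pools and orange lines P60 pools, the dotted line marks the start, and bins with under 3 CpGs or under 10 reads in a pool are left out. The stages part downstream of Foxa2 and around the start of Gata6, where the orange lines lie above the blue ones, and run close together along Gata4.

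Gata6, on the plus strand of chr18:11051565-11086995, had low methylation over a broad stretch around its start that was narrower at P60. The HMR over its starts, 6693 bp long, had 4.08% (3.66 to 4.54) and 3.00% (2.62 to 3.43) in the eYFP- and eYFP+ pools at P2 and 8.83% (8.42 to 9.25) and 7.92% (7.54 to 8.33) at P60. The libraries' HMRs here covered 6102 to 6693 bp at P2 and 4102 to 4782 bp at P60, so every P60 library lay below every P2 library. In intron 3, 8.5 kb inside the gene, the level went from 15.8% and 16.8% to 37.5% and 37.8% (21.72 and 21.04 percentage points, adjusted p = 2.83e-47 and 4.19e-42, Fisher's exact test), and 48 of its 53 CpGs were higher at P60 in both subtypes. The HMR 2.5 kb upstream, over the start of the antisense gene Gata6os, went from 13.8% and 12.04% to 30.8% and 31.3%. In intron 6 an HMR was called higher in eYFP- cells (18.3% to 28.8%) and missed the minimum in eYFP+ cells (22.2% to 32.0%). Only the P2 eYFP- pool and 1 of its libraries had this HMR, so it was picked for its low level in that pool. Past the gene, 44.7 kb from the start, another HMR was called in eYFP+ cells (3.40% to 15.6%) and not in eYFP- cells (7.63% to 15.4%). Neither difference between the subtypes was called. The HMR past the gene had 5 CpGs, and 1 of the 12 libraries, of P2 eYFP-, had it. The P60 eYFP+ pool still called it as an HMR. The 20 kb upstream as a whole had 43.8% and 41.7% at P2 and 55.02% and 54.4% at P60.

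Gata4, on the minus strand of chr14:63436362-63509141, had 14 HMRs, of which the one in intron 2 at chr14:63468380-63469126 was called. Its level went from 14.7% and 12.9% to 25.99% and 24.1%, and 7 of 8 P60 libraries still had an HMR here. The starts of Gata4 ranged widely. Within 500 bp of the start at 63482696, the level was 1.55%, 1.30%, 1.86% and 2.06% in the P2 eYFP-, P2 eYFP+, P60 eYFP- and P60 eYFP+ pools. Around the canonical start it was 17.4%, 13.1%, 21.3% and 16.2%, and around the outermost start 37.3%, 36.3%, 47.8% and 51.7%. The HMR that covers the first 2 of these starts had 11.2%, 10.5%, 14.7% and 12.5%.

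The 1 kb on either side of the outermost start, a stretch that HMR calls did not choose, was called at none of the 7 genes, while 2.99% of all genes were called higher in eYFP- and 2.79% in eYFP+ cells. Gata6 came nearest to a call by size, with 5.31% and 3.28% at P2 and 13.3% and 11.9% at P60, differences of 7.96 and 8.61 percentage points (adjusted p = 1.03e-22 and 2.73e-30, Fisher's exact test). Foxa1, Onecut1 and Foxa3 stayed between 1.29% and 6.74% in every pool. Foxa2 had 12.5% to 14.0% and Hnf4a 19.6% to 25.5%, as these stretches reach into methylated sequence on 1 side of the start. Gata4 was highest, with 45.7% and 48.8% at P2 and 52.7% and 56.1% at P60.

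The presence of HMRs followed the levels. Of the 60 merged HMRs, 56 were called in at least 1 P2 pool and 48 in at least 1 P60 pool. Over the whole genome, the libraries also held fewer HMRs at P60 (38052 to 49939) than at P2 (57109 to 60950). Both P2 pools but neither P60 pool had 10 of the 60 (16.7%, against 13.6% of all HMRs), and the reverse held for 2. The shares of all HMRs for the counts of 56, 48 and 2 are not given here, so these are not set against the genome. All 12 libraries shared 30 (50%, against 35.2%), and 4 were present in all 4 P2 libraries and in no P60 library (6.67%, against 5.27%). Those 4 were the HMRs of Hnf4a in introns 3 and 7, of Onecut1 51.2 kb downstream and of Foxa2 6.5 kb upstream.

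The length of HMR in each gene's window, 1 value per library, gave the replicated comparison of stages. It was shorter at P60 than at P2 for 6 of the 7 genes, all but Gata4. The test was a two-sided exact permutation test over the 4 P2 and 8 P60 libraries, adjusted over all genes. Of the 18955 genes tested, 52.8% share this result, while 1.16% were longer. The test takes the libraries as independent. With same-numbered libraries of a stage kept together, none of the 7 genes passed, as that permutation test allows no p under 0.0667. At P2 the same-numbered libraries were unlike in their X-chromosome HMRs, as given above, so the numbers may not mark pairs there. Libraries also held less HMR in all at P60, 42.7 to 46.1 Mb against 55.6 to 58.7 Mb, and the median gene's ratio was 0.857. As a share of the library's total, where the median gene's ratio was 1.09, 3 of the 6 were still shorter at P60, Hnf4a, Gata6 and Foxa2, and none longer, against 13% of all genes shorter and 33.1% longer.

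Hnf4a had 5509 and 5142 bp in the eYFP- and 5433 and 5428 bp in the eYFP+ libraries of P2. At P60 the eYFP- libraries had 2530, 2759, 2546 and 3219 bp and the eYFP+ libraries 2674, 3134, 2369 and 3355 bp. The stages did not overlap, at 5378 ± 162 bp (SD, n = 4) against 2823 ± 365 bp (SD, n = 8), a ratio of 0.525 (exact permutation p = 0.00202, the smallest that these libraries allow, adjusted p = 0.00571).

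Gata6 had 10353 and 8935 bp in eYFP- and 10235 and 10421 bp in eYFP+ cells at P2. At P60 it had 4952, 4936, 5118 and 5582 bp in eYFP- and 4753, 5667, 5235 and 5362 bp in eYFP+ cells. The means of 9986 ± 705 bp (SD, n = 4) and 5201 ± 323 bp (SD, n = 8) gave a ratio of 0.521, the lowest of the 7 genes. Foxa2 had 11472 and 13171 bp in eYFP- and 15771 and 13451 bp in eYFP+ cells at P2, and 8526 to 9320 bp at P60, a ratio of 0.658. Each of Hnf4a, Gata6 and Foxa2 had every P60 library below every P2 library, and as a share of the library total they were at 0.664, 0.660 and 0.836 of the P2 share (adjusted p = 0.00722, 0.00722 and 0.0172, exact permutation test).

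The other 4 genes had ratios of 0.761 to 0.870. Foxa3 had 11678 ± 855 bp (SD, n = 4) at P2 and 8893 ± 166 bp (SD, n = 8) at P60, Onecut1 15637 ± 342 and 13345 ± 837 bp, and Foxa1 18398 ± 1391 and 15997 ± 944 bp. Gata4, at 14528 ± 781 and 12562 ± 1288 bp, missed the threshold (adjusted p = 0.052, exact permutation test) and passed it without replicate 1 of the P60 eYFP+ libraries, which had 14694 bp (adjusted p = 0.0147, exact permutation test). The libraries of the stages did not overlap for 5 genes, against 36.9% of all genes, and overlapped for Foxa1 and Gata4. As a share of the library total the sign turned for Foxa1 and Onecut1, to 1.10 and 1.08 of the P2 share (adjusted p = 0.114 and 0.160, exact permutation test), and Gata4 was at 1.10 and Foxa3 at 0.966, so a direction of their own beyond that of all HMRs was not shown. With the P60 libraries of either submission alone, none of the 7 genes passed, with a lowest adjusted p of 0.0629 and 0.0635 (exact permutation test of 4 against 4 libraries, which allows no p under 0.0286).

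**Figure D4:**
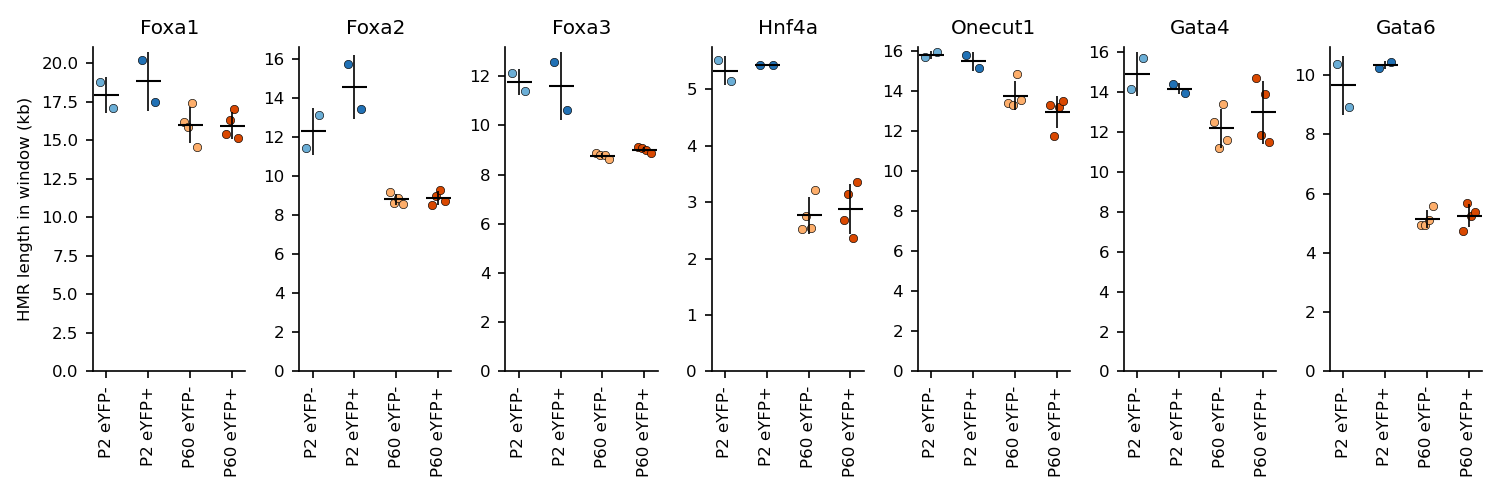
Length of HMR in the window of each gene (y axis, kb) in the 12 libraries, by subtype and stage. Points are libraries, horizontal bars group means and vertical bars SD (n = 2 at P2 and n = 4 at P60). At Hnf4a, Gata6, Foxa2, Foxa3 and Onecut1 every P60 library lies below every P2 library, and at Foxa1 and Gata4 the stages overlap.

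**Figure D5:**
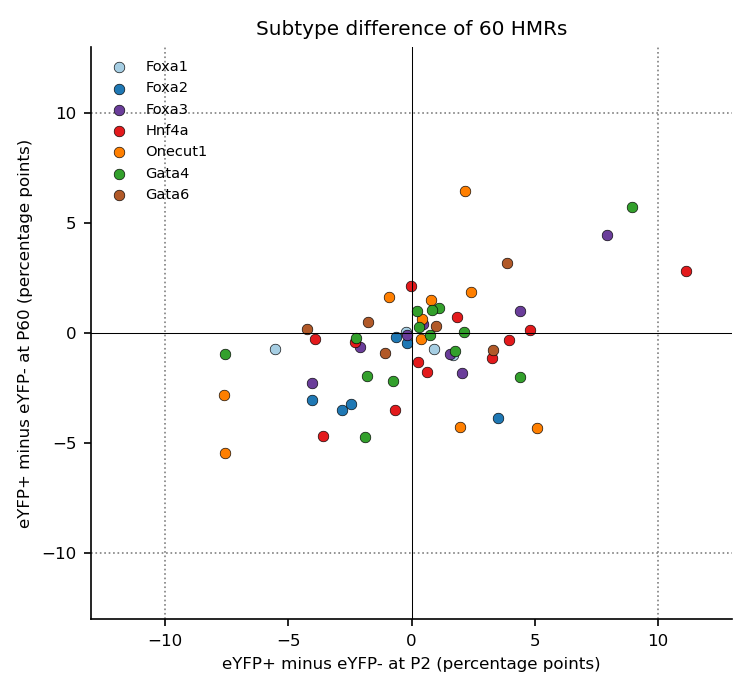
Difference in methylation level between eYFP+ and eYFP- pools (percentage points) at P2 (x axis) and at P60 (y axis) for each of the 60 merged HMRs, coloured by gene. Dotted lines mark the minimum of 10 points for a call. A single HMR, of Hnf4a, lies past a dotted line, at 11.15 points at P2 and 2.82 at P60.

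The subtypes differed by less than 10 percentage points at 59 of the 60 HMRs at P2 and at all 60 at P60. Differences of at least 10 points were rare over all HMRs too, at 5.61% of them at P2 and 3.01% at P60. At P2, 1 of the 60 HMRs was called higher in eYFP+ cells and 0 lower, against 0.893% and 0.476% of all HMRs, and at P60 none was called, against 0.372% higher and 0.403% lower. With no minimum on the difference, 3 HMRs (5%) passed Fisher's exact test at each stage, against 2.44% of all HMRs at P2 and 2.14% at P60. The median difference, eYFP+ minus eYFP-, was 0.40 percentage points at P2 and -0.36 at P60, against 0.21 and -0.11 over all HMRs. No HMR had a stage difference that was called different between the subtypes, against 0.969% of all HMRs.

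The called HMR lies 5.8 kb upstream of the distal start of Hnf4a, at chr2:163342671-163343178. Its 9 CpGs had 5.90% (3.72 to 9.25) methylation in the eYFP- and 17.1% (12.6 to 22.6) in the eYFP+ pool at P2, on 288 and 217 reads, a difference of 11.15 percentage points (adjusted p = 0.00895, Fisher's exact test). At P60 the levels were 13.7% (11.1 to 16.7) and 16.5% (13.7 to 19.6), with an adjusted p of 0.617. The libraries did not part the same way: the HMR covered 508 and 134 bp in the eYFP- and 134 and 255 bp in the eYFP+ libraries of P2, so the subtypes overlapped. Of the pools, P2 eYFP- called all 508 bp as HMR, and P2 eYFP+ and both P60 pools called 134 bp. The tested stretch was thus picked in part for its low level in the P2 eYFP- pool, which the test does not allow for.

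An HMR of intron 1 of Onecut1, chr9:74777949-74778945, was lower in eYFP+ cells in the pools of both stages, and it was singled out after its values were seen. It had 23.1% and 15.5% in the eYFP- and eYFP+ pools at P2 (-7.56 percentage points, adjusted p = 0.0279, Fisher's exact test) and 24.5% and 19.1% at P60 (-5.45 points, adjusted p = 0.048), under the minimum of 10 points. All 12 libraries had it. The P2 eYFP+ pool called the whole 997 bp as HMR, and the P2 eYFP- and both P60 pools called 810 bp of it. The tested stretch was thus picked in part for its low level in the P2 eYFP+ pool. Other HMRs under 10 points passed Fisher's exact test at a single stage. At P60, the HMR 14.6 kb upstream of Onecut1 went the other way, with 30.5% in eYFP- and 37.0% in eYFP+ cells (6.46 points). The HMR over the canonical start of Gata4 was lower in eYFP+ cells at P60 (-2.17 points). The HMR over the starts of Gata6 was lower in eYFP+ cells at P2 (-1.09 points). The largest subtype differences at the other genes were 8.96 points at P2 in an HMR of 44 bp in Gata4, 7.91 at P2 18.2 kb downstream of the Foxa3 start, -7.60 at P2 47.6 kb downstream of the Onecut1 start, -5.53 at Foxa1, -4.23 at Gata6 and -4.05 at Foxa2, with adjusted p from 0.243 to 0.616.

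In the libraries, HMR length was not called different between the subtypes at any of the 7 genes. At P60 the lowest exact permutation p was 0.0571, at Foxa3, with 8625 to 8858 bp in eYFP- and 8857 to 9117 bp in eYFP+ cells, and its adjusted p was 1.0; the smallest p that 4 against 4 libraries allow is 0.0286. At P2, 2 against 2 libraries allow no p under 0.333. None of the 7 genes reached an unadjusted p of 0.05 at either stage, and 0.0% of all genes were called after adjustment. Within the 4 P60 pairs of 1 replicate number, eYFP+ minus eYFP- length had 1 sign in every pair at 2 of the 7 genes, against 9.85% of all genes: Foxa3, at 259, 294, 196 and 232 bp, and Onecut1, at -108, -1534, -1631 and -58 bp. The exact permutation p within pairs was 0.125 for both, the smallest that 4 pairs allow, with an adjusted p of 1.0.

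Regions of differing CpGs were rebuilt from the counts as stretches inside the HMR of 1 subtype's pool and outside that of the other, of at least 50 bp and with 2 or more differing CpGs, and they are given as a description since the levels chose them. The windows held 12 of them. At P2, regions lower in eYFP- cells lay in the windows of Gata4 and Onecut1 (2 of 7 genes, against 9.37% of all genes) and regions lower in eYFP+ cells in those of Foxa2, Gata6 and Onecut1 (3 of 7, against 10.8%). At P60, those lower in eYFP- cells were at Gata4 (1 of 7, against 5.21%) and those lower in eYFP+ cells at Foxa2 and Gata4 (2 of 7, against 6.38%). The shares over all genes are not matched for window length or number of HMRs, so an excess at these genes is not shown. Some kept the order of the subtypes at both stages. A stretch of 125 bp just upstream of the canonical start of Gata4, chr14:63483930-63484054, had 28.3% and 13.5% in eYFP- and eYFP+ cells at P2 and 28.9% and 17.0% at P60, and the edge of the intron 1 HMR of Onecut1, chr9:74777949-74778135, had 43.4% and 29.1%, then 48.0% and 37.7%. The CpGs of this edge are part of the Onecut1 HMR tested above, so they are not a separate result. In contrast, 51 bp at chr14:63481736-63481786 in Gata4 had 27.3% and 48.6% at P2 and 52.6% and 41.0% at P60, with the order of the subtypes turned.

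Related genes were counted in the same way, against the 27.8% and 26.4% of all HMRs called higher at P60 in eYFP- and eYFP+ cells. Of the 33 HMRs of 7 paralogues (Hnf4g, Onecut2, Onecut3, Gata1, Gata2, Gata3 and Gata5), 5 were called higher and 1 lower at P60 in each subtype, or 15.2% higher. Of the 124 HMRs of 16 partners and further endoderm factors, 43 were called higher in eYFP- and 46 in eYFP+ cells, or 34.7% and 37.1%. Zfpm1, which encodes a cofactor of GATA proteins, had 10 and 11 of its 16 HMRs called, and Prox1, a factor of liver and pancreas progenitors, 8 and 6 of 11. The 2 kb around the outermost start of Prox1 went from 42.2% and 37.4% to 78.7% and 72.8%. For Nr0b2, a nuclear receptor without a DNA-binding domain, that stretch went from 38.1% and 38.5% to 53.8% and 52.2%. HMR length was shorter at P60 for 5 of the 7 paralogues and 14 of the 16 partners, against 52.8% of all genes.

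For each gene, the gene elsewhere in the genome whose HMR length ran most like its own over the 12 libraries, as a share of the library total, was Zfp532 for Gata6 (Pearson's r = 0.989), Npepl1 for Hnf4a (0.975), Ror2 for Foxa2 (0.962), C1qtnf3 for Onecut1 (0.940), Cyb5r3 for Gata4 (0.937), Nsmce2 for Foxa3 (0.920) and Tacc3 for Foxa1 (0.911). The libraries fall into 2 stages and share their depth and submission, and each gene was picked as the highest of all genes, so these values are a description.

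Short motifs of the factors were searched on both strands in the 200 bp around the middle of each HMR. This stretch reaches past the ends of HMRs shorter than 200 bp, so letters counted for those may lie outside them. For FOXA proteins the letters TGTTTAC were present in 1 of the 60 HMRs (1.67%, against 5.58% of all HMRs). For GATA proteins the letters AGATAAG were present in 3 (5.00%, against 3.28%), and for HNF6 the letters ATCAAT in 6 (10%, against 8.34%). The HNF4 letters CAAAGTCCA were in 1 (1.67%, against 0.354%). Of the 12 HMRs called higher in both subtypes, 2 held the GATA letters, of which the Gata4 stretch printed above has 1, and none held the others.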

How the data were processed

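Tagmentation-based WGBS libraries were trimmed by the authors with Trim Galore 0.6.6 and cutadapt 1.16, checked with FastQC, mapped to mm39 with abismal, handled with SAMtools 1.5 and analysed with MethPipe (versions of abismal and MethPipe are not given in the sources used here). The authors deposited counts of methylated and unmethylated reads per CpG for 4 pools, both strands merged, and HMR positions for the pools and for the 12 libraries. The pools named B1 and B2 were taken as eYFP- and eYFP+ because the number of regions in the deposited list for 1 direction then matches the study's text; the lists of regions that differ between subtypes were used for nothing else. Each pool overlapped the HMRs of libraries of that label more than those of the other (mean Jaccard index 0.841 against 0.785 and 0.840 against 0.782 at P2, 0.780 against 0.756 and 0.778 against 0.758 at P60). No 2 libraries were duplicates.

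Genes came from GENCODE vM39 (GRCm39). The members and lists were chosen with earlier results of these data known. Some genes of the list of related factors are not reported here, and its counts leave them out. HMRs of the 4 pools were merged where they overlapped. Reads were summed over the CpGs of each HMR (at least 10 reads in each pool compared) and set against each other by Fisher's exact test (2-sided), and the stage difference was compared between subtypes with a z test from binomial variances; p-values were Benjamini-Hochberg adjusted over all HMRs, start windows or genes, as fitting. Library HMR lengths were compared with two-sided exact permutation tests, whose p measures the spread between these libraries. Named were, for each gene, the HMR over its start (also over the canonical start where the outermost had none or another), those with the largest stage and subtype differences among HMRs with at least 5 CpGs and a mean of 10 reads per CpG, and HMRs called between groups; others are marked where they occur. The Fisher's exact test was run on simulated data first. Analyses used Python 3.11.15, numpy 2.4.6, pandas 2.3.3, scipy 1.17.1, numba 0.67.0 and matplotlib 3.10.9.

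Replicate numbers paired the P60 libraries: the presence of 84472 HMRs, centred on each subtype, correlated between same-numbered eYFP+ and eYFP- libraries at 0.150, 0.204, 0.309 and 0.140 for replicates 1 to 4, above 0.1 in each, though replicate 2 matched number 4 better. At P2 it was 0.014 for both numbers.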

Additional observations from a re-analysis of the deposited data

Results flagged for a closer look

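HMR length in the window of Onecut1 had 1 library far from the other 3 of its group in both P60 groups. In eYFP- cells, replicate 3 had 14843 bp, and the others had 13276, 13384 and 13541 bp. In eYFP+ cells, replicate 2 had 11742 bp, and the others had 13212, 13276 and 13483 bp. The gap to the nearest library was 0.831 and 0.844 of the whole range, past Dixon's critical value for 4 libraries. Of 14 groups of 4 libraries tested, these 2 passed, and chance passes about 1 in 20.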

How the results depend on the processing

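Of 87 recomputed summary values, counts or shares called, 66 were equal to the main value or within a fixed fold limit of it. This does not weigh the direction of the calls. Of 762 values of single HMRs and genes, 700 were called, or not called, as in the main setting. Among these 700, values that were called kept their sign, and values called in neither setting could change theirs. Of the 762, 2 turned their sign and were called in at least 1 of the settings. Of the member HMRs, 26.7% were called between stages in each subtype; this became 1.72% in eYFP- and 0.0% in eYFP+ cells with counts scaled down to the mean reads per CpG, 11.7% in both with a minimum of 20 percentage points, and 63.3% and 61.7% with none. The share called between subtypes at P2, 1.67%, was 0.0% with scaled counts, with 20 points and within gene bodies alone, 1.04% in windows with 50 kb on either side and 5.0% with no minimum, which also gave 5.0% at P60 and 1.67% for the difference between the subtypes' stage changes. Start windows, with 0 called, gave 1 in each subtype with 500 bp on either side (Gata4) and 5 and 6 with no minimum. Apart from subtype differences with no minimum, given above, the shares of all HMRs and genes under these settings are not printed here. The members are thus not set against the genome under them. For HMR length between stages, 6 genes were called; 3 were as a share of the library total, where Foxa1 and Onecut1 turned to 33.8 and 22.8 bp per Mb longer at P60, and 0 with the P60 libraries of either submission alone. Leaving out each library in turn gave 6 to 7 genes between stages (Gata4 was added without P60 eYFP+ replicate 1) and 0 to 0 between subtypes; leaving out both P2 eYFP- libraries, whose labelled sexes did not match, was chosen after seeing the data and gave 6. With the replicate number as a block, 0 genes were called between stages, as the 15 arrangements of pairs allow no p under 0.0667, and between subtypes 0 genes were called as without it. Apart from these constructions, the causes were not tested. Reads per CpG limit the subtype differences: the intervals of short HMRs with few reads span several percentage points, and smaller differences were not detectable there.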
